A study of Pseudotaxus chienii and Amentotaxus argotaenia and Torreya grandis with 9 samples.

Results

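Among the 88609 transcript features measured in 3 trees of the yew family (Taxaceae), 18 varied at least 3-fold between the libraries of every species. They were chosen by their measured levels: a species mean of 10 TPM or more in all 3 species and, inside each species, a highest library at least 3 times the lowest. TPM is a level scaled to feature length and to a common total per library. Of the 88609 features, 4599 met the mean and 18 of these met the fold in all 3 species. The values that chose them are the library values given here, so those values are a description and carry no test.

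Transcripts were measured by RNA-seq in fresh twigs, wood and needles together. The labels call Pseudotaxus chienii taxol-producing and both Amentotaxus argotaenia and Torreya grandis non-taxol producing. Each species had 3 libraries, 9 in all, from plants aged 3 years that shared 1 set of growth conditions and carried no listed treatment. The labels do not say whether separate trees were sampled. The p-values are therefore set against the spread among these libraries alone, and that spread may be technical.

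Taxol is a diterpenoid of yews used against cancer. It is built from the common precursor of diterpenoids by a ring-closing enzyme and a series of oxidations and acylations. A twig mixes photosynthetic needle tissue with wood, whose cells make lignified walls, so the RNA of a sample depends on how much of each it held. In such bulk samples fewer cells of a type and less RNA per cell cannot be told apart. A feature here is a gene as built by Trinity, a program that assembles transcripts from reads without a genome. A component is the cluster to which Trinity assigned related features, and it is read from the ID without its final gene number. The files pair no ID with a gene name, so no role can be given to a feature and the tissue label was not checked against marker genes.

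The same library of each species held the highest or the lowest value in all 18 features. These libraries were P. chienii replicate 1, A. argotaenia replicate 2 and T. grandis replicate 3. In 13 features all 3 libraries were the lowest of their species, and in 4 features all 3 were the highest. The remaining feature of the 18 was lowest in the first and second of them and highest in the third. Over all 4599 features that met the mean, with or without the fold, all 3 libraries were lowest in 6.63% and highest in 6.24%. When any 1 of these 3 libraries was left out, no feature met the rule. For the 18 this follows from the values that chose them and adds no separate support. Leaving out any 1 of the other 6 libraries kept between 16 and 18 features. The labels used here give no batch, date or lane that would join these 3 libraries, and their replicate numbers differ.

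**Figure D1:**
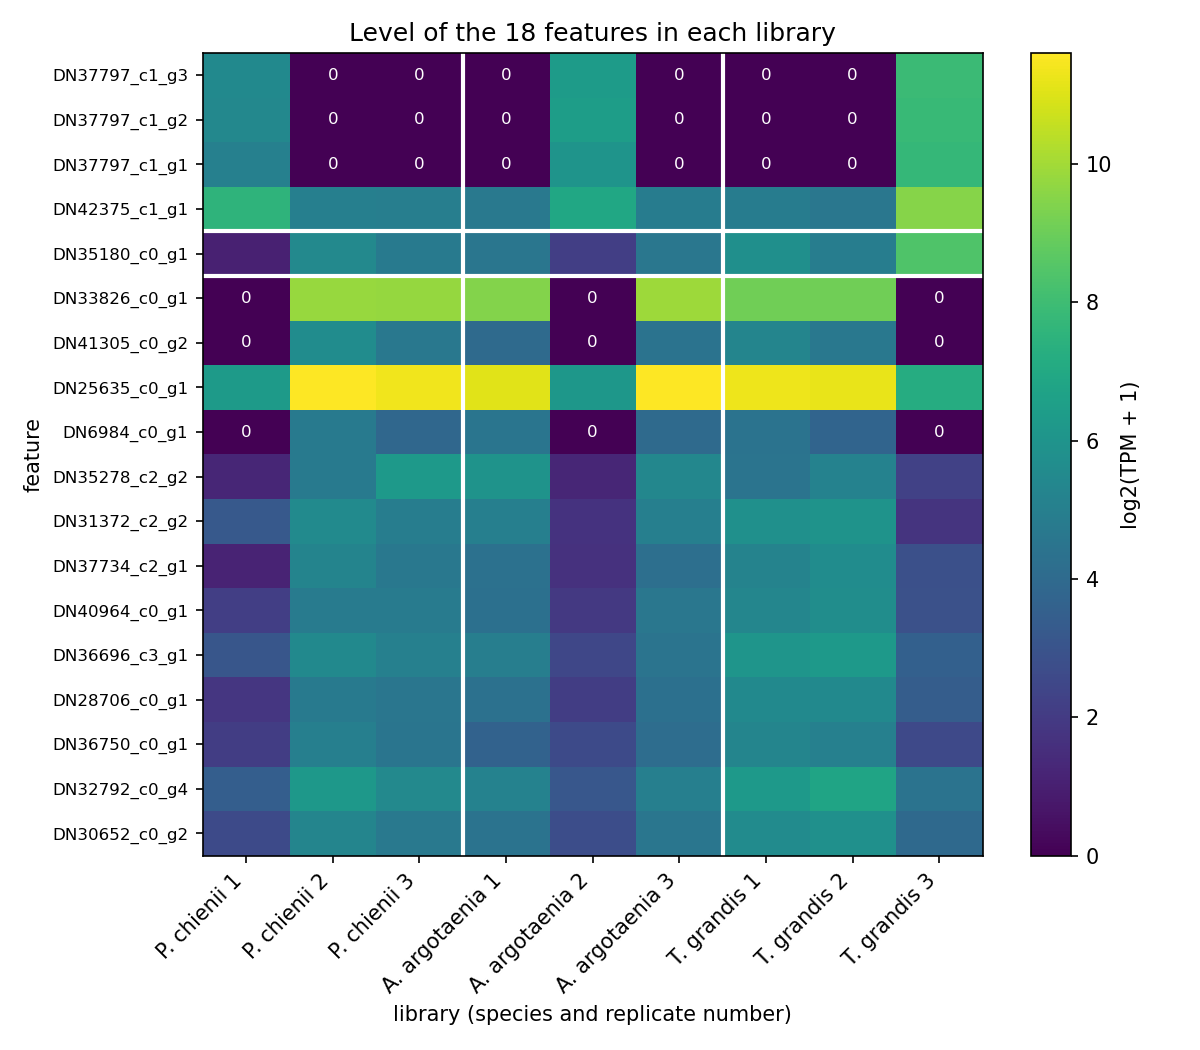
Level of the 18 features (rows) in the 9 libraries (columns), as log2(TPM + 1) on the colour scale, with 0 written where a feature is listed at 0 TPM. White lines separate the species and the 3 kinds of pattern: 4 features highest in libraries P. chienii 1, A. argotaenia 2 and T. grandis 3, then 1 mixed feature, then 13 features lowest there.

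The most abundant member was TRINITY_DN25635_c0_g1, the single feature of its component. In P. chienii it stood at 79.7, 3101 and 2654 TPM in replicates 1, 2 and 3. The A. argotaenia levels, in the same order, were 2185, 69.6 and 3106 TPM, and those of T. grandis were 2537, 2392 and 145 TPM. The 6 high values lay within a range from 2185 to 3106 TPM although they came from 3 species, and the 3 low values lay far below them. The low library was at 3.003% of the lower of the other two in P. chienii. The matching value was 3.19% for A. argotaenia and 6.04% for T. grandis. In P. chienii replicate 2 this feature was the 17th most abundant of all (rank 17), and in replicate 1 it held rank 1897.

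TRINITY_DN33826_c0_g1, also alone in its component, followed the same libraries to 0. Its P. chienii levels were 0, 889.5 and 874 TPM in replicates 1, 2 and 3. In A. argotaenia it was at 692, 0 and 958 TPM, and in T. grandis at 540.1, 539 and 0 TPM. The 6 libraries above 0 ranged from 539 to 958 TPM. A value of exactly 0 in a file without counts can be a failed estimate, so it is given only as listed at 0. TRINITY_DN41305_c0_g2 and TRINITY_DN6984_c0_g1 were listed at 0 in the same 3 libraries. The first was at 15.3 to 48.2 TPM and the second at 12.4 to 25.6 TPM in the other 6.

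TRINITY_DN41305_c0_g2 is 1 of 6 features of its component. It held 0.247% of the mean component level for P. chienii, 41.6% for A. argotaenia and 46.7% for T. grandis. The whole component was at 10147, 7361 and 11809 TPM in P. chienii replicates 1, 2 and 3. The P. chienii library that lists this member at 0 was thus not low for the component, which other features carried there. In the other species the component was lowest in the same library as the member. It was at 32.9, 7.6 and 45.3 TPM in A. argotaenia and at 72.6, 50.8 and 9.23 TPM in T. grandis.

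The other 9 features lowest in these libraries stood between 11.6 and 107.8 TPM outside them. TRINITY_DN35278_c2_g2 was at 1.38, 25.8 and 76.9 TPM in P. chienii, at 60.9, 1.34 and 39.8 TPM in A. argotaenia and at 20.9, 33.9 and 3.74 TPM in T. grandis. It was also the most uneven of the 13 between the remaining P. chienii libraries, which differed 2.98-fold. TRINITY_DN37734_c2_g1 was at 1.26, 36.5 and 24.4 TPM in P. chienii, at 18.9, 2.13 and 17.96 TPM in A. argotaenia and at 35.2, 49.3 and 6.11 TPM in T. grandis. TRINITY_DN31372_c2_g2 was at 8.50, 46.6 and 29.6 TPM, at 30.9, 2.21 and 31.6 TPM and at 55.8, 61.5 and 2.32 TPM in the same order of species. In this feature the low library of P. chienii fell less far, to 28.7% of the lower of the others, than those of A. argotaenia at 7.14% and T. grandis at 4.16%.

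The remaining 6 features were low in the same way and above 2 TPM in every library. TRINITY_DN32792_c0_g4 was at 10.03, 71.3 and 43.2 TPM in P. chienii, at 33.9, 7.81 and 31.0 TPM in A. argotaenia and at 77.4, 107.8 and 20.2 TPM in T. grandis. TRINITY_DN36696_c3_g1 was at 7.63, 44.1 and 32.6 TPM, at 29.8, 4.47 and 21.2 TPM and at 66.2, 74.4 and 10.8 TPM in the same order. Both were highest in T. grandis replicate 2, and each of their 3 low libraries was below all of the other 6. TRINITY_DN40964_c0_g1 was at 3.41, 27.1 and 27.8 TPM, at 18.4, 2.86 and 23.1 TPM and at 39.3, 50.6 and 6.30 TPM. TRINITY_DN28706_c0_g1 was at 2.61, 26.5 and 22.6 TPM, at 19.3, 3.27 and 18.3 TPM and at 44.8, 45.2 and 9.56 TPM. Its T. grandis replicates 1 and 2 were nearly equal, and so were its A. argotaenia replicates 1 and 3. TRINITY_DN30652_c0_g2 was at 5.06, 37.6 and 24.9 TPM, at 20.4, 5.77 and 22.8 TPM and at 47.1, 56.3 and 14.6 TPM. TRINITY_DN36750_c0_g1 was at 3.33, 31.4 and 21.8 TPM, at 11.6, 5.15 and 16.5 TPM and at 38.1, 32.2 and 4.91 TPM. This last feature had the smallest ratio of any member, with a highest A. argotaenia library 3.20 times the lowest.

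Over the 13 features, the low library of P. chienii stood at a median of 11.6% of the lower of the others, with a range from 0 to 28.7%. The medians were 11.9% in A. argotaenia, with a range from 0 to 44.6%, and 16.0% in T. grandis, with a range from 0 to 30.9%. The remaining libraries of a species differed by a median of 1.49-fold for P. chienii, 1.33-fold for A. argotaenia and 1.19-fold for T. grandis. These medians describe features chosen for such a gap.

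The features that were high in P. chienii replicate 1, A. argotaenia replicate 2 and T. grandis replicate 3 came from 2 components. TRINITY_DN37797_c1_g1, TRINITY_DN37797_c1_g2 and TRINITY_DN37797_c1_g3 are all the features of 1 component and were listed at 0 in the other 6 libraries. TRINITY_DN37797_c1_g3 was at 44.7 TPM in P. chienii replicate 1, 82.6 TPM in A. argotaenia replicate 2 and 236 TPM in T. grandis replicate 3. TRINITY_DN37797_c1_g2 was at 42.2, 87.2 and 224 TPM and TRINITY_DN37797_c1_g1 at 31.7, 62.7 and 213 TPM in these libraries. The share of the component held by TRINITY_DN37797_c1_g1 was 26.7%, 27.0% and 31.7%, so the 3 features kept similar proportions while the component rose from 119 to 233 to 674 TPM across the 3 libraries. Being features of 1 component, they may share sequence and are not 3 independent cases.

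TRINITY_DN42375_c1_g1 was present everywhere and higher in the same libraries. It stood at 185, 31.2 and 30.1 TPM in P. chienii, at 25.1, 118 and 27.9 TPM in A. argotaenia and at 28.6, 23.0 and 709 TPM in T. grandis. The 6 other libraries lay between 23.0 and 31.2 TPM. The high library exceeded the lowest of its species 6.14-fold for P. chienii, 4.71-fold for A. argotaenia and 30.8-fold for T. grandis.

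TRINITY_DN35180_c0_g1 was the exception. It was at 1.09, 42.9 and 26.3 TPM in P. chienii and at 22.8, 3.38 and 23.4 TPM in A. argotaenia, lowest in the same libraries as the 13. In T. grandis it was at 53.8, 28.8 and 343 TPM, so T. grandis replicate 3 was the highest of the 9 libraries. Its component has 2 features, and this member held all of the T. grandis level.

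**Figure D2:**
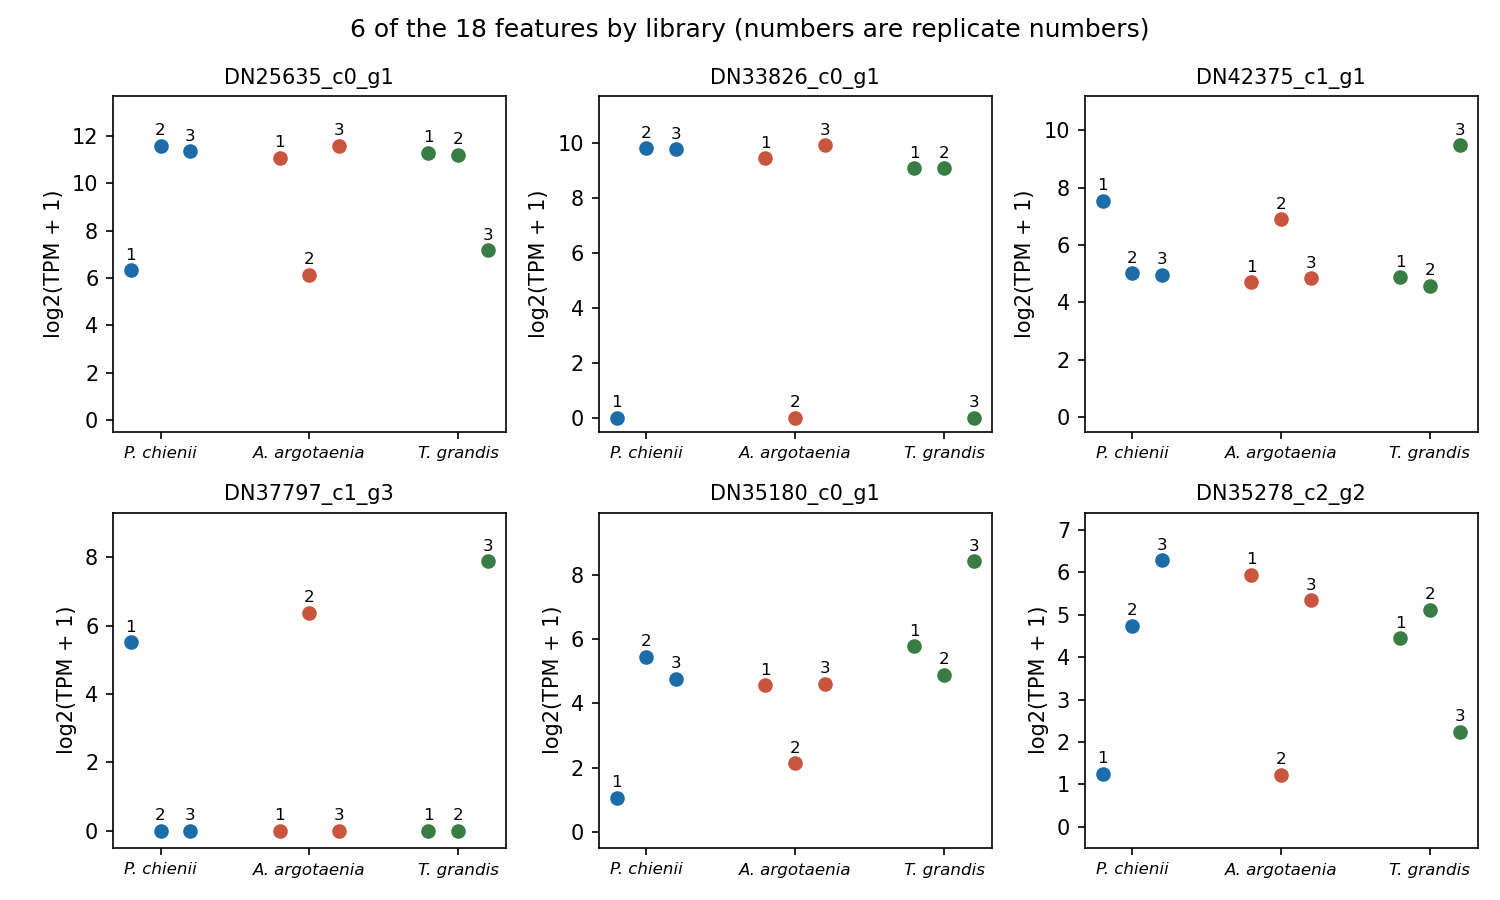
Level of 6 of the 18 features in each library, as log2(TPM + 1), with points numbered by replicate and coloured by species. In TRINITY_DN25635_c0_g1, TRINITY_DN33826_c0_g1 and TRINITY_DN35278_c2_g2 the points P. chienii 1, A. argotaenia 2 and T. grandis 3 lie lowest, in TRINITY_DN42375_c1_g1 and TRINITY_DN37797_c1_g3 they lie highest, and in TRINITY_DN35180_c0_g1 the T. grandis point turns upward.

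Within a species more members shared a lowest library than a highest one. The rule used these values, so the counts are a description. A feature with 1 library far below the others has its highest value decided between the 2 that remain. P. chienii replicate 1 was the lowest library in 14 of 18 members, A. argotaenia replicate 2 in 14 and T. grandis replicate 3 in 13. Over all 4599 features that met the mean, the same libraries were lowest in 42.2%, 42.2% and 30.0%. There A. argotaenia replicate 1, at 46.5%, and T. grandis replicate 1, at 41.4%, were lowest more often. Among those that also met the fold within the species, members included, the 3 libraries were lowest in 61 of 111, 70 of 159 and 23 of 51. They were highest in 38, 79 and 26 of these, so outside P. chienii they were more often highest than lowest. Among the members the highest library was more divided than the lowest. P. chienii replicate 2 was highest in 12 members, replicate 1 in 4 and replicate 3 in 2. In A. argotaenia replicates 1, 2 and 3 were highest in 6, 4 and 8 members, and in T. grandis in 5, 8 and 5. With trimmed-mean scaling or quantile normalization, A. argotaenia replicate 1 was highest in 8 members and replicate 3 in 6. Of the 153 pairs of members, 47.7% shared their P. chienii maximum, 32.0% their A. argotaenia maximum and 31.4% their T. grandis maximum. Over all pairs of the 4599 features the shares were 33.6%, 36.2% and 35.1%. Among the 13 features lowest in the 3 libraries, P. chienii replicate 2 exceeded replicate 3 in 11, A. argotaenia replicate 3 exceeded replicate 1 in 7 and T. grandis replicate 2 exceeded replicate 1 in 8.

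The combined level of the 18 members was lowest in the same 3 libraries, but elsewhere 2 features gave most of it. TRINITY_DN25635_c0_g1 and TRINITY_DN33826_c0_g1 gave 3101 and 889.5 of the 4485 TPM summed in P. chienii replicate 2. The sum therefore does not show that the other members were low in those 3 libraries as a set. The 18 members held 0.0428% of all TPM in P. chienii replicate 1, against 0.449% and 0.393% in replicates 2 and 3. In A. argotaenia replicates 1, 2 and 3 they held 0.321%, 0.0459% and 0.437%, and in T. grandis 0.364%, 0.353% and 0.195%. TRINITY_DN25635_c0_g1 gave only 145 of the 1949 TPM summed in T. grandis replicate 3, where the members that were high there gave most of the sum.

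Across species, the direction of the change in 1 of the 3 libraries went with its direction in the others in all but 1 member. The difference of a library from the mean of the other two of its species, on the log2(TPM + 1) scale, was compared across the 18 members. Between P. chienii replicate 1 and A. argotaenia replicate 2 the Pearson correlation was 0.99, between P. chienii replicate 1 and T. grandis replicate 3 it was 0.93 and between A. argotaenia replicate 2 and T. grandis replicate 3 it was 0.95. The members form a low and a high set and were chosen for large differences, so these values mostly restate which set a member is in. Whether the sizes of the changes went together within a set was not tested. Over the other 4581 features that met the mean, the same 3 correlations ranged from 0.0040 to 0.17, and the 24 other pairs of libraries of different species ranged from -0.19 to 0.19. The shared pattern was thus not seen in most features of this abundance.

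**Figure D3:**
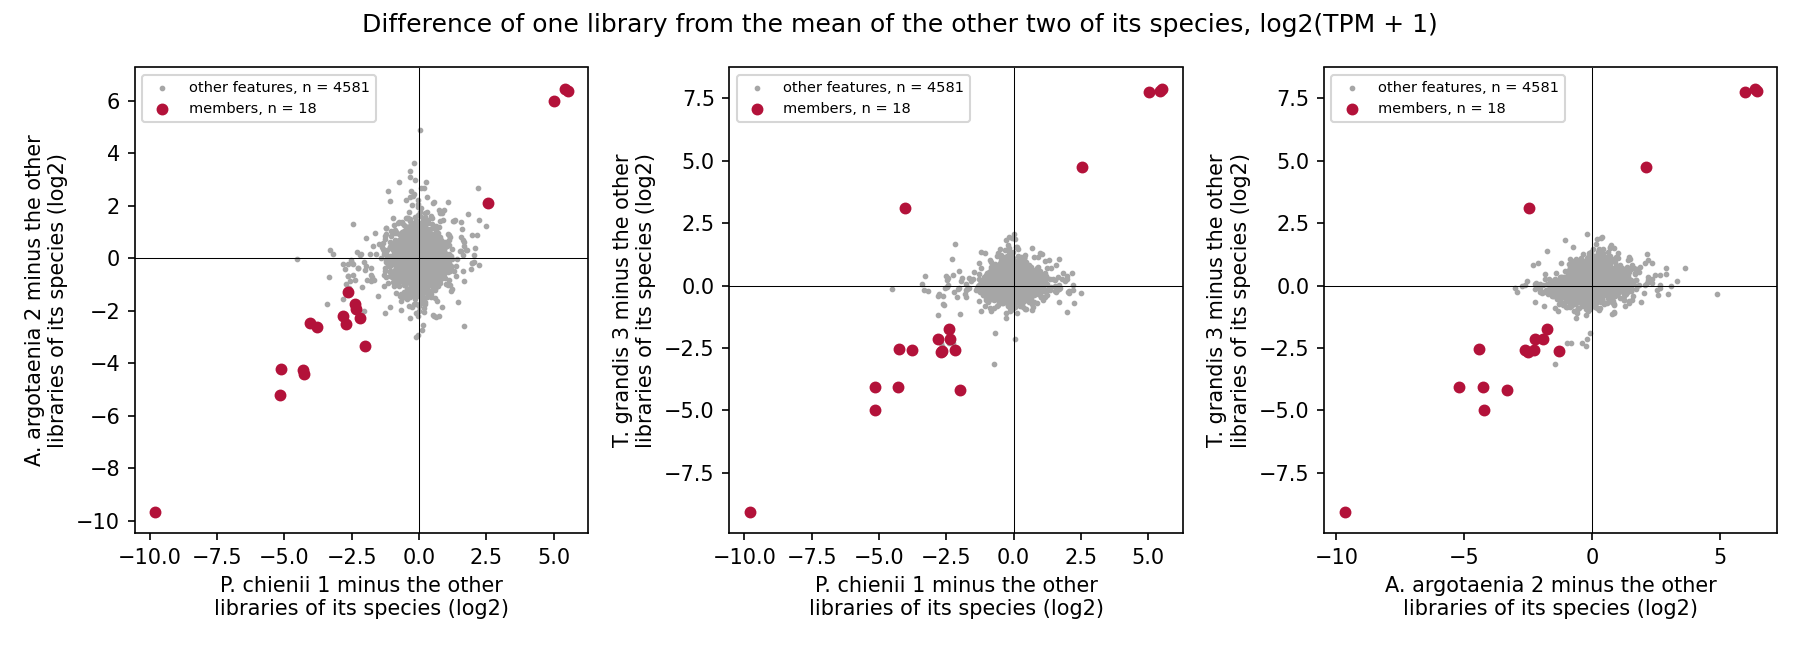
Each point is 1 of the 4599 features that met the mean, and each axis is the difference of 1 library from the mean of the other two of its species on the log2(TPM + 1) scale. The 18 members (red) lie along the diagonal, except TRINITY_DN35180_c0_g1 in the panels with T. grandis 3, and the 4581 other features (grey) gather around 0.

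The fold alone was rarely met at this abundance. Of the 4599 features, 111 (2.41%) varied at least 3-fold among P. chienii libraries, 159 (3.46%) among those of A. argotaenia and 51 (1.11%) among those of T. grandis. These shares belong to the contrast that chose the members, so nothing is read from the members' count against them. In 223 features the fold was met in 1 species, in 22 features in 2 species and in 18 features in all 3. Of the 22, 9 were lowest and 6 were highest in the libraries named above in both species that met the fold. Among the 9 that were lowest there, 8 had a highest species mean at least 50 times the lowest, so they were features of 1 or 2 species present at low levels in another. TRINITY_DN36656_c0_g7, for example, was at 6.57, 73.4 and 37.5 TPM in P. chienii and at 31.4, 11.1 and 38.6 TPM in A. argotaenia, against 12227, 17131 and 10699 TPM in T. grandis. It and the other features outside the 18 that are named here were chosen after their values were seen, apart from those beside the limits of the rule.

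Members just inside the limits resembled the others. Features just outside them, except TRINITY_DN5562_c0_g2, were also highest or lowest in the same 3 libraries. The smallest of the 3 ratios was 3.20 in TRINITY_DN36750_c0_g1, 3.86 in TRINITY_DN30652_c0_g2 and 4.34 in TRINITY_DN32792_c0_g4. Just below the limit were TRINITY_DN50175_c0_g1 at 2.57, TRINITY_DN39199_c0_g5 at 2.52 and TRINITY_DN5562_c0_g2 at 2.36. TRINITY_DN50175_c0_g1 was highest in the same 3 libraries, at 39.2, 30.2 and 24.7 TPM. TRINITY_DN39199_c0_g5 was lowest in them, at 16.7, 25.7 and 17.7 TPM. TRINITY_DN5562_c0_g2 was lowest in A. argotaenia replicate 2 and T. grandis replicate 3, but in P. chienii it was lowest in replicate 2. At the limit on the mean, TRINITY_DN37797_c1_g1 and TRINITY_DN6984_c0_g1 had lowest species means of 10.6 and 10.96 TPM. TRINITY_DN32613_c2_g2 and TRINITY_DN42000_c0_g1, at 9.88 and 9.84 TPM, lay just below it. Both were lowest in the same 3 libraries as the 13 members.

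Species means of the members were about as far apart as those of other features of this abundance. The highest species mean was between 1.15 and 8.59 times the lowest, with a median of 2.37, against a median of 2.19 over the 4599 features. TRINITY_DN25635_c0_g1 had the closest means. Its P. chienii mean was 1945 ± 1631 TPM (SD, n = 3), its A. argotaenia mean 1787 ± 1557 TPM and its T. grandis mean 1691 ± 1341 TPM. TRINITY_DN35180_c0_g1 had the widest, at 23.4 ± 21.0 TPM, 16.5 ± 11.4 TPM and 142 ± 175 TPM. Both were within the spread of their libraries.

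Species were compared in pairs, the taxol-producing one with each of the others and those others with each other. The level difference between species was not part of the rule. The limma fit on log2(TPM + 1) took in the 75926 features that reached 1 TPM in 3 or more libraries. A feature was counted as changed when it differed 2-fold or more with an adjusted p below 0.05. By this measure 0 of 18 members changed between the P. chienii and A. argotaenia libraries. In this comparison 62.6% of all features tested and 32.4% of the 4599 features changed. Between P. chienii and T. grandis 0 of 18 members changed, against 56.1% and 31.8%. Between A. argotaenia and T. grandis 0 of 18 changed, against 47.5% and 29.1%. In each comparison 0 members had an unadjusted p under 0.05. All 18 members entered the tests, and the 3 comparisons share libraries in pairs.

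The wide spread that chose the members also enters the error of these tests. The standard error of a member's log2 fold change had a median of 1.35 and a range from 0.82 to 3.86, against a median of 0.17 over the 4599 features. The log2 fold change of TRINITY_DN25635_c0_g1 was 0.16 ± 1.97 (SE) between P. chienii and A. argotaenia and -0.14 ± 1.97 between P. chienii and T. grandis. The smallest adjusted p of any member was 0.137 by limma, for TRINITY_DN35180_c0_g1 in the comparison of P. chienii with T. grandis. Its log2 fold change there was -2.60 ± 1.35 (SE). That no member passed does not show that the species were alike.

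Leaving out the 3 libraries that stand apart, a step chosen after seeing the data, gave 7 members that were lower in A. argotaenia than in T. grandis by limma. This fit had 2 libraries per species, and 48% of all features tested and 31.3% of the 4599 changed in it. The rule chose members for the spread that these 3 libraries made, so leaving them out takes that spread from the error. The median standard error of a member's log2 fold change was 0.23 here, against 1.35 with all 9 libraries. The p-values of this fit are therefore not independent of how the members were chosen. The 3 features of the TRINITY_DN37797_c1 component were listed at 0 in all 6 libraries and could not change here, which leaves 15 members. TRINITY_DN28706_c0_g1 had a log2 fold change, A. argotaenia over T. grandis, of -1.22 ± 0.11 (SE; adjusted p = 0.000933, limma). TRINITY_DN32792_c0_g4 had a log2 fold change of -1.47 ± 0.30 (adjusted p = 0.0129, limma) and TRINITY_DN36696_c3_g1 of -1.45 ± 0.23 (adjusted p = 0.00581, limma). The other 4 were TRINITY_DN30652_c0_g2, TRINITY_DN36750_c0_g1, TRINITY_DN37734_c2_g1 and TRINITY_DN40964_c0_g1, with log2 fold changes from -1.28 to -1.08. All 7 belong to the 13 features lowest in the libraries left out. With all 9 libraries their log2 fold changes ranged from -1.40 to -0.84 and 0 of 7 passed. Over the 18 other alternatives their limma adjusted p ranged from 0.0846 for TRINITY_DN36696_c3_g1 to 1 for TRINITY_DN37734_c2_g1. In the same 6 libraries limma gave 0 of 18 members for P. chienii against A. argotaenia, where 62.7% of all features tested and 32.8% of the 4599 changed. There 2 members had an unadjusted p under 0.05, and both also had a limma adjusted p under 0.05 but differed less than 2-fold. For P. chienii against T. grandis it gave 0 of 18, where 55.2% and 32.9% changed. There 6 members had an unadjusted p under 0.05, and 5 of them had a limma adjusted p under 0.05 but differed less than 2-fold.

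The 3 libraries also stood apart in how much they held of features of other species. Features whose mean reached 100 TPM in a single species and stayed below 2% of that in both others had low values in the libraries of those others. At 274 such features of A. argotaenia, the median level was 0.0958% of the A. argotaenia mean in P. chienii replicate 1, against 0.851% and 0.430% in replicates 2 and 3. T. grandis replicate 3 held them at 0.133%, against 0.648% and 0.421% in replicates 1 and 2. At 314 features of T. grandis, P. chienii replicate 1 was at 0.0499% against 0.547% and 0.306%, and A. argotaenia replicate 2 at 0.136% against 0.230% and 0.296%. At 577 features of P. chienii, A. argotaenia replicate 2 was at 0.120% against 0.145% and 0.161%, and T. grandis replicate 3 at 0.115% against 0.309% and 0.222%. In all of these sets the lowest library of a species was the one in which 13 members were lowest. The part of this in the levels of the members was not tested.

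**Figure D4:**
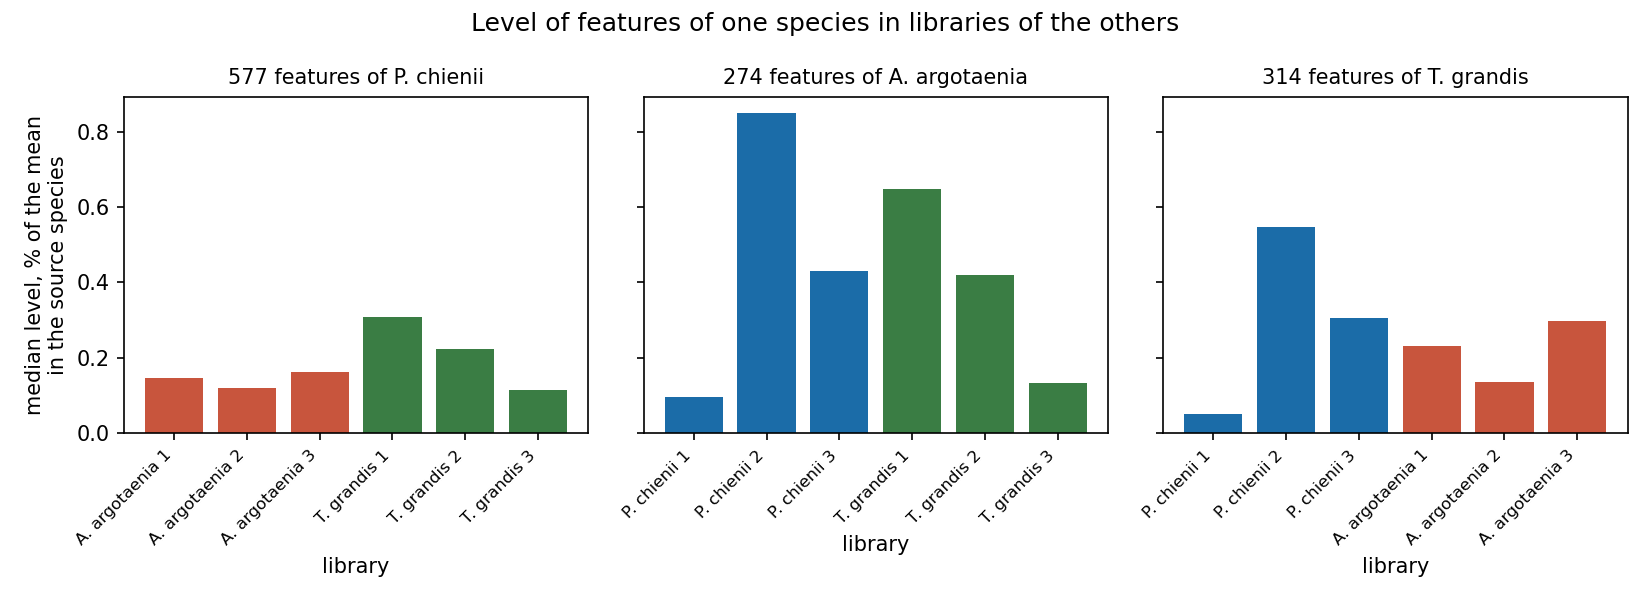
Median level of features that are abundant in one species and nearly absent in the others, in the libraries of those others, as a percent of the mean in the source species. Within each species the bar of P. chienii 1, A. argotaenia 2 or T. grandis 3 is the lowest, from 0.0499% to 0.136%.

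The same libraries listed more features at 0 than the others of their species. P. chienii replicate 1 listed 43114 at 0, against 31782 and 35062 in replicates 2 and 3, A. argotaenia replicate 2 listed 35488 against 29944 and 31002, and T. grandis replicate 3 listed 41328 against 34038 and 37153. TPM keeps no read count, so depth is unknown, and its part in these counts was not tested. Of the 18 members, 4 were higher in all 3 of these libraries, 3 of them features of 1 component, and no cause is read from this.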

How the data were processed

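The authors deposited 1 table of TPM values per library. The values are taken as TPM. Their sums lay between 999890 and 999947, which shows a common total per library but not the scaling to feature length. Trinity appears in the labels and the IDs. How the reads were quantified, and with which versions and filters, is not given in the sources used here. The 9 tables share 1 list of features.

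The members and the alternatives were chosen with earlier results of these data known. Members were found by the rule in Python 3.11.15 with pandas 2.3.3 and numpy 2.4.6, and figures were drawn with matplotlib 3.10.9. For the species comparisons limma 3.58.1 (R 4.3.3) was run on log2(TPM + 1), unscaled otherwise and with its intensity trend. A single model of species used the 9 libraries. Its two-sided p-values received the Benjamini-Hochberg adjustment across the 75926 features tested. The pseudocount of 1 makes log2 fold changes of low features too small. The code for this fit was tested on simulated data.

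The naming rule took the 6 members with the largest geometric mean of the 3 ratios of TPM + 1, the 2 most abundant per species, the largest rise and fall among changed members, the leading 4 in the most frequent combination of highest libraries (3 combinations tied), features beside the limits and members that share a component. The other members were also described, so that all 18 are accounted for. Alternatives were other pseudocounts, filters, scalings, folds and means, no intensity trend, the replicate number as a block, component sums and each library left out in turn.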

Additional observations from a re-analysis of the deposited data

How the results depend on the processing

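The number of features meeting the rule was 40 with a fold of at least 2, which kept all 18, and 16 with a fold of at least 4. Lowering the mean to 5 TPM gave 64 and raising it to 20 TPM gave 5. Summed over components, 31 components met it. It was 20 with trimmed-mean scaling and 19 with quantile normalization, and 17 of the 18 were kept in each. With 1 library left out it ranged from 0 to 18, and it was 0 without P. chienii replicate 1, without A. argotaenia replicate 2, without T. grandis replicate 3 and without all 3 of these. For the 18 members the counts of 0 follow from the values that chose them. A mean of 1 TPM, chosen after seeing the data, gave 2334 features. The number of members changed by limma stayed at 0 in all 3 comparisons under 18 alternatives each, with the smallest adjusted p of a member between 0.0817 and 0.756. It was 7 for A. argotaenia against T. grandis without the 3 libraries that stand apart. That step also removes the spread the rule chose on. The replicate block also gave 0 members in each comparison. Whether replicate numbers pair the samples was not settled. The deviations of libraries with the same number correlated between -0.29 and 0.19 over the features tested, and 3 of 9 such pairs were over 0.1. Those 3 pairs hold none of the libraries that stand apart. Deviations sum to 0 within a species, and the libraries that stand apart carry different numbers, so these correlations cannot decide it. Counts of members by highest library stayed within 1.5 times under both scalings. The leading A. argotaenia library changed all the same. Under both scalings replicate 1 went from 6 to 8 members and replicate 3 from 8 to 6. Unknown depth limits every statement on low values.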

Other observations

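The pattern of the 18 members was also seen at lower means among features chosen by the same fold. Of the 2334 features whose mean reached 1 TPM in every species and whose libraries ranged 3-fold in each, 1851 were lowest and 43 were highest in P. chienii replicate 1, A. argotaenia replicate 2 and T. grandis replicate 3. The matching share over all features with such a mean, whatever their fold, was not computed. Over the 4599 features with a mean of 10 TPM it was 6.63% lowest and 6.24% highest in these 3 libraries. Features listed at 0 in 1 library of each species and at 1 TPM or more in the other 6 numbered 1377. In 1362 of them the libraries at 0 were these 3, and no other of the 27 possible combinations held more than 2. Of the 1362, 60.9% were the single feature of their component, against 26.8% of all features. Over the 6 libraries they summed to between 4423 TPM in A. argotaenia replicate 1 and 14423 TPM in T. grandis replicate 1.

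The reverse pattern, at 1 TPM or more in 1 library of each species and listed at 0 in the other 6, was held by 72 features, 63 of them in the same 3 libraries and at most 1 in any other combination. Besides the component of TRINITY_DN37797_c1_g1 they included TRINITY_DN36656_c0_g3, at 17.8, 32.2 and 48.7 TPM, and TRINITY_DN40206_c0_g2, at 17.5, 20.1 and 83.4 TPM, both named after their values were seen. Over all features tested, deviations from the species mean correlated between 0.30 and 0.40 among the 3 libraries, and between -0.32 and 0.24 in the other 24 pairs between species.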
